A study of Cavia porcellus with 18 samples.

Results

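CG sites far downstream of gene starts were examined in the hippocampus of the guinea pig (Cavia porcellus). They were the distinct positions in the deposited table of CG sites whose nearest listed transcription start site lay more than 100000 bases upstream. The rule used position alone and no methylation value. It gave 19596 deep sites of the 167387 sites measured in both methylation assays, or 11.7%. They were assigned to 1171 genes and 1183 transcripts on 160 scaffolds. Their distances ran from 100002 to 1059379 bases, with a median of 174325 and quartiles of 128883 and 262988. The table listed no site more than 10001 bases upstream of a start site, whereas downstream sites reached beyond 1000000 bases. It gave no gene ends, so whether a deep site lies within the body of its gene was not tested. Of the deep sites, 135 (0.689%) named more than 1 gene, against 6.71% of sites at 10000 to 100000 bases.

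The tissue came from 3 wild type male animals of 12 weeks, and the labels name no treatment. The 18 libraries comprised 3 of H3K4me1 ChIP-seq, 3 of H3K4me1 ChIP followed by bisulfite sequencing, 3 of ChIP-seq for RNA polymerase II phosphorylated at serine 5 (Pol II PS5), 6 of bisulfite RRBS read at 50 or 100 bases, and 3 of RRBS DNA without bisulfite, which were not analysed here. RRBS, reduced representation bisulfite sequencing, reads methylation on DNA digested by MspI and ApeKI, which are restriction enzymes, whatever chromatin it came from. ChIP-bisulfite reads it on DNA precipitated with the H3K4me1 antibody. Each site had 1 level per assay for all animals together, so no error between animals could be given and no difference was tested. The SE below are over genes. The SD are over genes where gene means are described, and over sites where the sites of 1 gene or of all deep sites are. Intervals are exact binomial (Clopper-Pearson, 95%) and cover counting error only. The RRBS list held 131062338 reads at 5053261 positions of 10 or more reads, and deep sites had a median of 17 reads (quartiles 13 and 26). The depth of the ChIP-bisulfite levels is unknown. In this bulk tissue, a change in the mix of cell types and a change within cells cannot be told apart. Gene identifiers had no symbols in the sources used here, so genes are given by identifier, and neither gene families nor marker genes of the hippocampus could be looked up.

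H3K4me1 marks enhancers and the flanks of promoters. In mammalian DNA most CG sites are methylated, CG-dense start sites are mostly free of methylation, and the bodies of transcribed genes are usually methylated. Polymerase phosphorylated at serine 5 is the form found early in transcription, mainly near start sites, and it also occurs at active enhancers. Very long genes are common among genes used by neurons, and their introns hold many enhancers. Deep sites in the table are therefore H3K4me1-marked DNA far from the annotated start of the gene they were listed under. All 19596 lay in a deposited H3K4me1 peak, as did every other site of the table.

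Deep sites were mostly methylated in RRBS and had a lower mean level on the H3K4me1-bound DNA. Their mean level was 64.7% in RRBS (SE 0.378 over 1171 genes) and 53.3% in ChIP-bisulfite (SE 0.465). The mean difference, ChIP-bisulfite minus RRBS, was -11.4 percentage points (SE 0.339). The median difference was 0, since ChIP-bisulfite was lower at 46.1% of deep sites, higher at 34.3% and equal at 19.6%. Within 1000 bases of a start site, 22823 sites had means of 28.2% (SE 0.449) and 24.5% (SE 0.471) and a difference of -3.70 points. The deep sites thus had more than 2 times the level of start-site sites in both assays. The 54980 sites at 10000 to 100000 bases had means of 63.1% (SE 0.233) and 51.5% (SE 0.269), with a difference of -11.6 points (SE 0.210).

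The levels did not keep climbing with distance. Sites 100 to 200 kb from the start site had means of 64.8% in RRBS and 53.4% in ChIP-bisulfite. Sites at 200 to 400 kb had 64.6% and 53.1%. The 1793 sites beyond 400 kb, in 101 genes, had 64.3% (SE 1.20) and 53.9% (SE 1.501). Each of these pairs differed by less than 1 point, within the SE of the farthest class. At the threshold itself, the 2273 sites at 90009 to 99993 bases had means of 64.9% and 52.9%, and the 1911 sites at 100002 to 110000 bases had 65.4% and 53.3%. No step marks the 100000-base threshold.

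**Figure D1:**
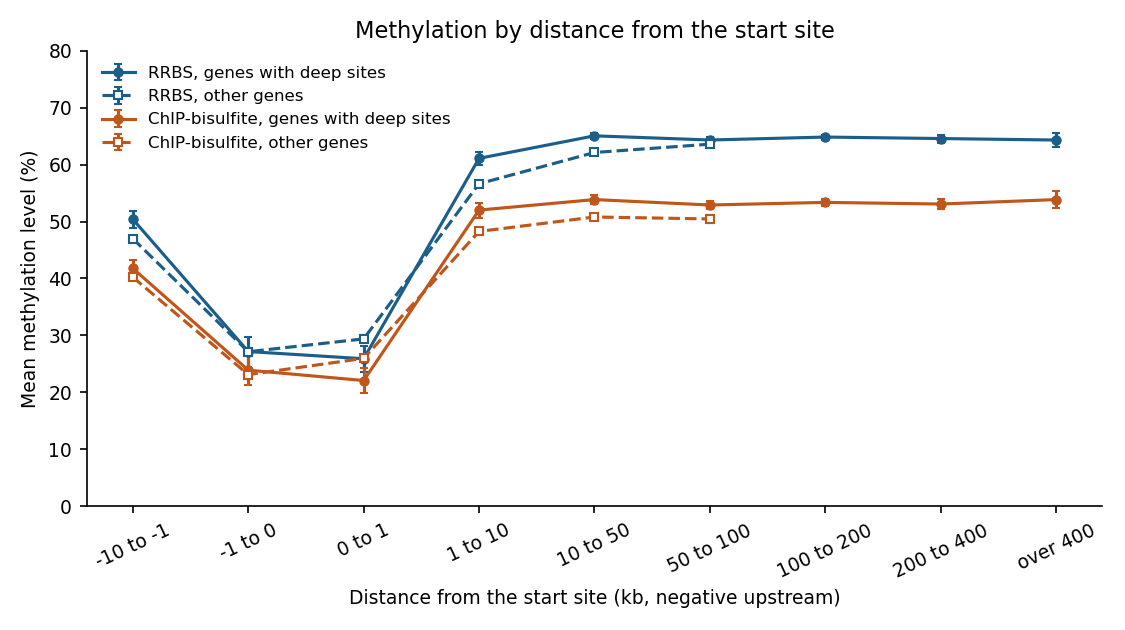
Mean methylation level (%) in RRBS (blue) and ChIP-bisulfite (orange) by distance from the start site in kb, for genes with deep sites (filled circles, solid lines) and other genes (open squares, dashed lines); bars are ±1 SE over genes. Levels fall to 25.9% and 22.1% in the first kb of genes with deep sites, and from 10 kb on they stay between 64.3% and 65.1% in RRBS and between 52.9% and 53.9% in ChIP-bisulfite.

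The plateau was already present nearer to the start in the same genes. In genes with deep sites, the 7245 sites at 10 to 50 kb had means of 65.1% (SE 0.576) in RRBS and 53.9% (SE 0.731) in ChIP-bisulfite. In all other genes, the 31853 sites of that range had 62.1% (SE 0.311) and 50.8% (SE 0.346). At 50 to 100 kb, genes with deep sites had 64.3% (SE 0.516) and 52.9% (SE 0.638). The others had 63.6% (SE 0.649) and 50.5% (SE 0.743) there, so the RRBS gap was smaller than at 10 to 50 kb. In the first kb downstream of the start site the order was the other way, with 25.9% (SE 2.28) and 22.1% (SE 2.23) in genes with deep sites and 29.4% (SE 0.607) and 26.0% (SE 0.610) in the others. The last pair of groups lay within about 2 SE of each other. Over all sites, the deep mean exceeded that at 10000 to 100000 bases by 1.66 points in RRBS and 1.83 points in ChIP-bisulfite.

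That excess was not seen inside genes. In the 592 genes with 5 or more sites in both ranges, the gene means averaged 65.3% for deep sites and 65.7% for sites at 10000 to 100000 bases in RRBS, a mean difference of -0.41 points (SD 16.3, SE 0.668). Deep sites were higher in 289 of these genes, lower in 302 and equal in 1. In ChIP-bisulfite the means were 53.9% and 55.0%, a difference of -1.09 points (SD 21.9, SE 0.900), with 286 genes higher, 303 lower and 3 equal. Neither mean difference was more than 1.3 times its SE.

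The levels of single sites were far more spread than these means. In RRBS, 13.7% of deep sites were at 20% or less, 43.4% lay between 20% and 80%, and 42.9% were at 80% or more. In ChIP-bisulfite the shares were 39.0%, 15.4% and 45.5%, so the upper class was about as full as in RRBS, the intermediate class was smaller and the lower class larger. An exact 0 or 100 was listed for 29.7% of deep sites in RRBS and 65.6% in ChIP-bisulfite. The RRBS share at these ends moved with depth, from 39.8% of sites with 10 to 15 reads to 8.52% of sites with more than 60. The ChIP-bisulfite share was 65.8% and 63.9% in the same sites. The part of ChIP-bisulfite depth in its share of ends was not tested, since its reads per site are unknown.

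The gap between the assays differed with the RRBS level and is therefore given by RRBS class, beside the nearer sites. The classes were cut on the RRBS level itself, which favours a rise in the low class and a fall in the high class. How much of each gap comes from this choice was not tested. Among deep sites at 80% or more in RRBS, the mean difference was -21.5 points (SE 0.492), against -21.7 (SE 0.296) at 10000 to 100000 bases. Among intermediate sites it was -8.82 points (SE 0.497), against -9.87 (SE 0.314). Among sites at 20% or less it was 12.3 points (SE 0.702), against 10.6 (SE 0.370) at 10000 to 100000 bases and 6.67 (SE 0.146) over all sites. The low deep sites had means of 6.40% in RRBS and 18.7% in ChIP-bisulfite, while the low sites of the whole table had 3.90% and 10.6%. Of these 2682 low deep sites, 324 (12.1%) were at 80% or more in ChIP-bisulfite, against 6.06% of the low sites of the whole table.

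The authors' deposited table of differentially methylated sites holds those at 70% or more in one assay and 30% or less in the other. It listed 2542 deep sites (13.0%, interval 12.5 to 13.5) as lower in ChIP-bisulfite, against 10.2% of all sites. It listed 608 (3.10%, interval 2.86 to 3.36) as higher, against 2.93% of all sites. A site can be listed lower only if its RRBS level is at least 70%, and of the 10319 deep sites that were, 24.6% (interval 23.8 to 25.5) were listed. The share was 24.7% at 10000 to 100000 bases and 23.8% over all sites, so the surplus of lower sites came down to about 1 point among sites that could be listed. For higher sites the eligible shares were 16.2% of deep sites (interval 15.04 to 17.4), 13.7% at 10000 to 100000 bases and 9.02% over all sites. Of the genes with 5 or more deep sites, 642 held a site listed lower, 328 one listed higher, 300 both and 115 neither. Such counts rise with the number of sites per gene (median 15 here). No like count was made at other distances, so they mark no trait of these genes.

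Genes were alike in their deep methylation and varied mostly within themselves. There were 785 genes with 5 or more deep sites, holding 18686 of the sites, with a median of 15 and a maximum of 302. The other 386 genes held 910 sites and are not described singly. Over the 785 genes the mean RRBS level averaged 65.2% (SD 13.2, SE 0.470), with a median of 66.3% and 10th and 90th percentiles of 49.7% and 79.96%. The mean ChIP-bisulfite level averaged 53.7% (SD 16.01, SE 0.572), with a median of 53.5% and 10th and 90th percentiles of 33.2% and 72.8%. The ChIP-bisulfite mean was below the RRBS mean in 669 genes (85.2%), above it in 114 and equal in 2. Among the 293 genes with 20 or more deep sites it was below in 275 (93.9%) and above in 18. Gene means in the assays had a Spearman's rho of 0.579 over the 785 genes, which share animals, and 0.636 over the 293.

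**Figure D2:**
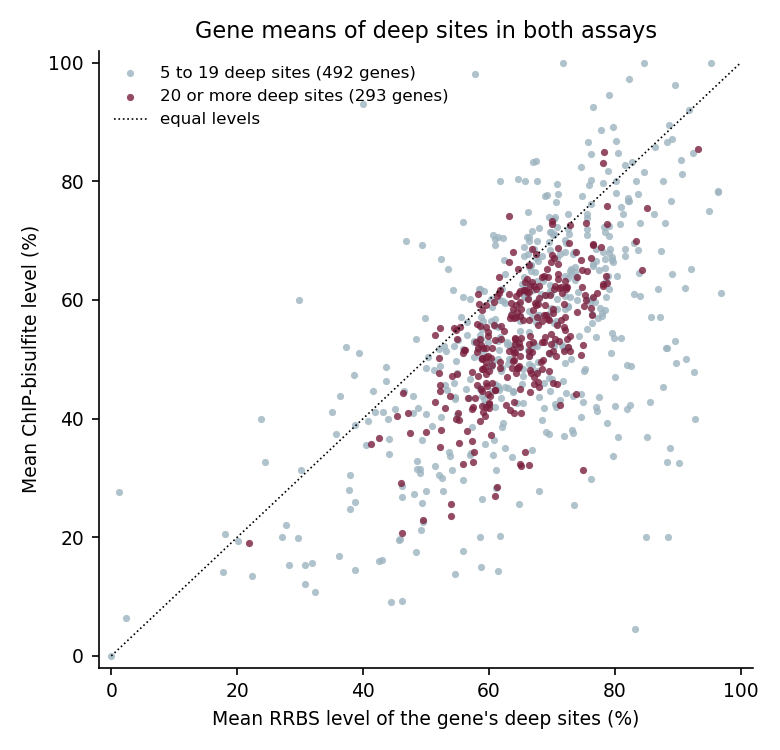
Mean RRBS level (x axis, %) against mean ChIP-bisulfite level (y axis, %) of the deep sites of each of 785 genes, with genes of 5 to 19 deep sites in grey and 20 or more in dark red; the dotted line marks equal levels. Most genes lie under the line (669 of 785), and the genes with many sites gather near the centre, with extremes held by genes of few sites.

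Most of the variance lay between sites of the same gene. In RRBS the SD between genes was 7.41 points and the SD within genes 31.6 points, so genes took 5.22% of the variance. In ChIP-bisulfite they took 3.53%. In the range of 10000 to 100000 bases, genes took 13.0% and 7.68%, over a different set of 3314 genes. The split treats the sites of a gene as independent, although close neighbours are alike. Whether deep sites vary less between genes than nearer sites was therefore not tested. Grouping the same deep sites by H3K4me1 peak raised the share to 21.1% in RRBS and 17.1% in ChIP-bisulfite. The RRBS read counts by themselves give a site an SD of 8.60 points, beside the SD within genes of 31.6. The same value cannot be given for ChIP-bisulfite.

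Similarity between deep sites was short in range. Neighbouring deep sites of 1 gene that were 2 to 100 bases apart differed by a mean of 19.1 points in RRBS and 25.6 in ChIP-bisulfite. Those over 100 and up to 1000 bases apart differed by 32.9 and 44.2 points. Those more than 10000 bases apart differed by 33.6 and 46.9 points, so nearly all of the likeness was gone within 1000 bases. Adjacent positions, the C of either strand of 1 CG, differed by 20.6 and 30.3 points. The same steps were seen at 10000 to 100000 bases, with 18.7, 33.0 and 33.9 points in RRBS.

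The gene with most deep sites was ENSCPOG00000014759, whose start site is at scaffold_25 position 25945250 on the minus strand. Positions are given as the deposited files give them, in a genome build that is not given in the sources used here, and whether they count from 0 or 1 is not stated. Its 302 deep sites lay 110839 to 696109 bases downstream in 51 H3K4me1 peaks. Their RRBS levels ran from 0 to 100 with a median of 64.5% and a mean of 59.6% (SD 33.3 over sites). In ChIP-bisulfite the median was 33% and the mean 46.0% (SD 42.9). This gene spans nearly the full range of levels within itself, as most genes with many sites did.

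Genes ENSCPOG00000010091 (scaffold_2, start 70066106, minus strand) and ENSCPOG00000008752 (scaffold_53, start 1543964, minus strand) came next, with 261 and 203 deep sites. Their deep sites fell mainly in single very broad H3K4me1 peaks. The peak on scaffold_53 from 1214148 to 1434317, 220169 bases wide, is the widest of the 327682 in the deposited list and held 177 deep sites, with means of 62.1% in RRBS and 47.2% in ChIP-bisulfite. The peak on scaffold_2 from 69731364 to 69931905, 200541 bases wide, is the second and held 206 deep sites, with means of 61.2% and 49.0%. Both means in both peaks were within 7 points of those of all deep sites. The 10 genes with most deep sites held 1709 sites, or 8.72%, and their gene means ran from 59.3% to 75.2% in RRBS and from 46.0% to 68.1% in ChIP-bisulfite.

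The genes at the ends of the range had few sites, and those at the low end had them close together. ENSCPOG00000007040 (scaffold_1, start 32327395, minus strand) had the lowest RRBS mean, with 5 deep sites at 290236 to 290827 bases that were all at 0 in both assays. ENSCPOG00000021321 (scaffold_23, start 3919786, minus strand) had 7 deep sites at 140208 to 140282 bases, with means of 2.29% in RRBS and 6.43% in ChIP-bisulfite. The 5 genes with the lowest RRBS means, from 0 to 18%, each had all of their deep sites in 1 H3K4me1 peak. The 5 with the highest, from 94.9% to 96.8%, had 5 to 11 sites in 2 to 4 peaks.

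The difference between assays was most negative in ENSCPOG00000001018 (scaffold_104, start 4305308, plus strand). Its 8 deep sites had a mean of 83.1% in RRBS (SD 24.9) and 4.63% in ChIP-bisulfite (SD 10.5), a difference of -78.5 points. All 8 levels in ChIP-bisulfite were at 30% or less, and 6 of the sites were in the authors' list as lower. The most positive was ENSCPOG00000005488 (scaffold_11, start 13033099, minus strand), whose 5 deep sites had means of 40% (SD 54.8) and 93.0% (SD 11.7), a difference of 53.0 points. Among the 293 genes with 20 or more deep sites, the difference ran only from -43.5 to 11 points.

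Pol II PS5 peaks rarely held deep sites. Of the 19596, 173 (0.883%, interval 0.757 to 1.02) lay inside 1 of 105 of the 67423 deposited Pol II PS5 peaks, in 97 genes. The share was 1.03% (interval 0.943 to 1.11) at 10000 to 100000 bases, 6.55% within 1000 bases of a start site and 2.22% over all sites. Deep sites inside had means of 51.0% in RRBS (SE 3.62) and 46.2% in ChIP-bisulfite (SE 4.09), while those outside had 64.8% (SE 0.377) and 53.4% (SE 0.466). Even inside a Pol II PS5 peak, deep sites were thus several times as methylated as start-site sites inside one, at 10.4% (SE 1.30) and 7.34% (SE 1.01). Sites at 10000 to 100000 bases inside Pol II PS5 peaks had 44.5% (SE 2.37) and 34.9% (SE 2.33).

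In the 94 genes with deep sites both inside and outside, the gene mean was 53.7% inside and 63.7% outside in RRBS, a difference of -9.98 points (SD 34.8, SE 3.59). Sites inside were lower in 54 genes and higher in 40. In ChIP-bisulfite the means were 47.8% and 52.9%, a difference of -5.10 points (SD 41.7, SE 4.30), with 53 genes lower and 40 higher. The RRBS difference was more than 2 SE over genes from 0, and the ChIP-bisulfite difference was not. This does not show that the assays differ, and neither difference was tested, since the animals are pooled. Few of the Pol II PS5 peaks held 3 or more deep sites (12 of 105), so most inside means rest on few sites.

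**Figure D3:**
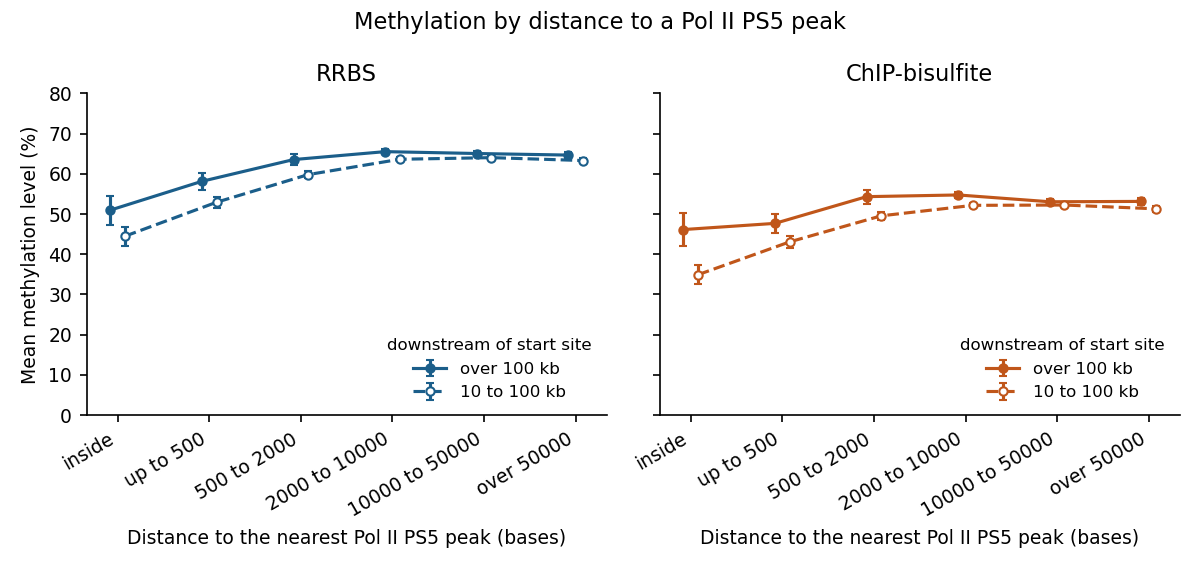
Mean methylation level (%) by distance in bases to the nearest Pol II PS5 peak, in RRBS (left) and ChIP-bisulfite (right), for deep sites (filled, solid) and sites at 10 to 100 kb (open, dashed); bars are ±1 SE over genes. RRBS levels of deep sites go from 51.0% inside a peak to 65.5% at 2000 to 10000 bases, and in both assays the deep sites near a Pol II PS5 peak lie above those at 10 to 100 kb.

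The lower RRBS level reached a short way beyond the Pol II PS5 peaks. The 529 deep sites within 500 bases of one had means of 58.2% (SE 2.13) in RRBS and 47.7% (SE 2.36) in ChIP-bisulfite. At over 500 and up to 2000 bases, 1075 sites had 63.6% (SE 1.38) and 54.3% (SE 1.75). At over 2000 and up to 10000 bases the means were 65.5% (SE 0.697) and 54.8% (SE 0.832), the level of deep sites in general.

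Deep sites inside Pol II PS5 peaks, like those outside, held both low and high levels. At 20% or less in both were 42 of the 173 inside (24.3%) and 10.2% of those outside. At 80% or more in both were 33 inside (19.1%) and 28.6% outside. In 28 of the 105 peaks the mean RRBS level of the deep sites was 20% or less, and in 33 it was 80% or more. Only 12 of the 105 held 3 or more deep sites. The peak on scaffold_166 from 748029 to 748344, in ENSCPOG00000021195, held 3 deep sites at 0 in both assays. The peak on scaffold_39 from 13926553 to 13926849, in ENSCPOG00000003027, held 3 deep sites at 100 in both. These peaks were named after their values were seen.

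The Pol II PS5 peak with most deep sites stood apart in depth. It lies on scaffold_10 from 20266834 to 20267118, about 151 kb into ENSCPOG00000002614 (start 20116136, plus strand), and has a deposited score of 82.78, against a median of 3.11 for the 105. It held all 22 deep sites of this gene, with up to 76312 RRBS reads at 1 position, where the median of deep sites was 17. It also held all 10 deep sites with 1000 or more reads. At the deepest position, 150707 bases from the start site, the level was 86% in RRBS (interval 85.8 to 86.2) and 74% in ChIP-bisulfite. At 150699 bases it was 2% (interval 1.89 to 2.11) and 6%, with both RRBS intervals narrower than the rounding of levels to whole percent. At 150853 bases it was 11% and 12%. Its 22 sites ran from 2% to 87% in RRBS and from 6% to 87% in ChIP-bisulfite, with a mean difference of 2.64 points (SD 10.1), a far closer match than at deep sites in general (SD 41.2). How many copies of this DNA the genome holds was not tested. Without this peak, deep sites inside Pol II PS5 peaks had means of 50.9% in RRBS (SE 4.15) and 45.0% in ChIP-bisulfite (SE 4.51).

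The deposited table also gives each transcript 1 Pol II PS5 score, 0 where there is none. Of the 1183 transcripts of deep sites, 1028 (86.9%) had a score, with a median of 3.54 and a range from 2.41 to 23.2. A score was the more frequent the farther the transcript's listed sites reached. A longer listed span has more room for a Pol II PS5 peak, so a rise of this share with length is largely built in. It was present in 19.9% of transcripts whose farthest site was within 10 kb, 41.7% at 10 to 50 kb, 67.7% at 50 to 100 kb, 81.4% at 100 to 200 kb and 91.9% beyond 200 kb. The median of the scores themselves was 4.10, 3.63, 3.47, 3.45 and 3.62 in these classes.

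**Figure D4:**
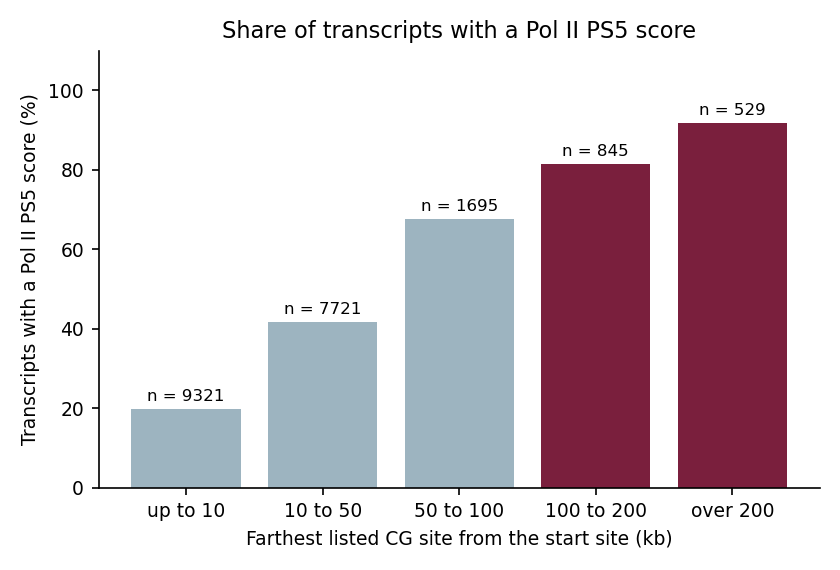
Share of transcripts with a Pol II PS5 score above 0 (y axis, %) by the distance of the farthest listed CG site in kb, with the number of transcripts above each bar; classes reaching beyond 100 kb are in dark red. The share goes from 19.9% in the shortest class to 91.9% in the longest, and longer spans have more room for a Pol II PS5 peak.

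In most of these transcripts the score matched the Pol II PS5 peaks along the whole listed length, and in few those at the start. In 909 of the 1183 (76.8%) it equalled, within 0.001, the mean score of the Pol II PS5 peaks from 1000 bases upstream of the start site to the farthest listed site. The mean over peaks within 1000 bases of the start site equalled it in 172 (14.5%). The 1183 include 155 transcripts with no score, and matches among these were not counted apart in any of these shares. A Pol II PS5 peak lay within 1000 bases of the start site in 202 transcripts (17.1%), and 828 had a score with no such peak. A peak more than 100000 bases downstream was present in 762 (64.4%). Counted once per gene, Pol II PS5 peaks numbered 81.1 per Mb in the first kb, 13.7 per Mb at 1 to 10 kb, 15.7 per Mb at 10 to 100 kb and 16.1 per Mb from 100 kb to the farthest listed site. Beyond the first kb, the density of Pol II PS5 peaks along these genes thus stayed between 13.7 and 16.1 per Mb.

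Deep RRBS levels were alike in transcripts with and without a score, while the mean of the ChIP-bisulfite gene levels was lower without one, a difference that was not tested. Deep sites of scored transcripts (18545 sites) had means of 64.8% in RRBS (SE 0.388) and 53.4% in ChIP-bisulfite (SE 0.477). Those of transcripts with no score (1051 sites) had 63.7% (SE 1.61) and 51.6% (SE 1.94). By gene, the 719 scored genes averaged 65.2% (SE 0.483) and 54.1% (SE 0.591), and the 67 without a score 65.1% (SE 1.90) and 49.2% (SE 2.11). A gene with deep sites on a scored and an unscored transcript counts in both sets. The ChIP-bisulfite gene means were a little over 2 SE apart. The difference between the assays averaged -11.1 points (SE 0.484) in scored genes and -15.96 points (SE 1.84) in those without a score, about 2.5 SE apart. By site these differences were -11.3 (SE 0.348) and -12.1 (SE 1.48), less than 1 SE apart. Over the 3 classes of scored genes from lowest to highest score, RRBS gene means were 66.4%, 65.0% and 64.3% and ChIP-bisulfite means 55.5%, 53.6% and 53.2%, each with an SE near 1. Neighbouring classes were within about 1.5 SE of each other.

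By the presence of a Pol II PS5 peak at the start site, deep levels were within their SE by site and within 1.5 SE by gene. Deep sites of genes with one had means of 64.7% (SE 0.734) and 53.1% (SE 1.05), and those of genes without one 64.7% (SE 0.427) and 53.4% (SE 0.515). By gene the means were 66.6% (SE 1.01) and 54.0% (SE 1.32) in 127 genes with one, and 64.9% (SE 0.525) and 53.6% (SE 0.633) in 658 without. The highest score of a gene with 5 or more deep sites was the 23.2 of ENSCPOG00000002614 described above. ENSCPOG00000001750 (scaffold_171, start 296813, minus strand), with a score of 12.7, had 27 deep sites with means of 71.2% (SD 30.8) and 42.3% (SD 47.6). The 10 genes with the highest scores had RRBS means from 44.1% to 76.5% and ChIP-bisulfite means from 9.20% to 82.4%. Over all 785 genes the means ran from 0 to 96.8% and from 0 to 100%.

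Deep sites lay in 7037 H3K4me1 peaks with a median width of 3993 bases (quartiles 2662 and 5946). At 10000 to 100000 bases the peaks with sites had a median width of 4187 bases, and within 1000 bases of a start site 5924. A Pol II PS5 peak overlapped 10.2% of the deep H3K4me1 peaks, 13.3% of those at 10000 to 100000 bases and 44.3% of those at start sites. The authors' counts of C positions belong to the intervals of their H3K4me1 averages (the header does not say which C positions count). These intervals are not all the same as the listed peaks: 7917 of them held deep sites, against 7037 listed peaks. All densities given here are those of the intervals. The intervals with deep sites were the poorest in C positions. Their median density was 19.1 per kb, against 22.1 and 42.8 per kb in the other classes.

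Methylation was lower in denser intervals, and at matched density deep sites did not stand apart from sites at 10000 to 100000 bases. In intervals with fewer than 20 C positions per kb, deep sites had means of 67.3% in RRBS (SE 0.428) and 57.5% in ChIP-bisulfite (SE 0.580). At 10000 to 100000 bases the means were 67.5% (SE 0.324) and 57.3% (SE 0.416). At 20 to 40 per kb the RRBS means were 64.6% and 63.9%, and at 40 to 80 per kb 59.7% and 58.5%. Above 80 per kb, the 159 deep sites in 36 genes had 33.1% (SE 6.58) and 28.1% (SE 5.87), against 34.2% (SE 2.15) and 28.1% (SE 1.91). Start-site sites were lower at every density, with 50.3% in RRBS in the poorest class and 16.4% in the richest.

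**Figure D5:**
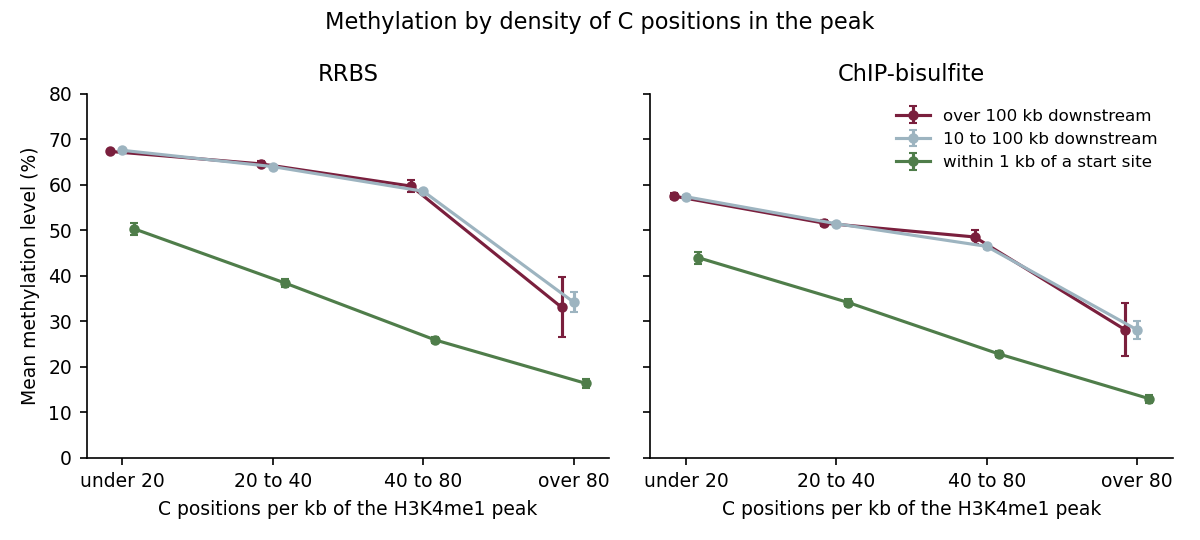
Mean methylation level (%) in RRBS (left) and ChIP-bisulfite (right) by the number of C positions per kb, for deep sites, sites at 10 to 100 kb and sites within 1 kb of a start site. Bars are ±1 SE over genes. The density is that of the interval in the authors' H3K4me1 averages, which the axis calls the H3K4me1 peak. The first pair of lines coincide, from 67.3% and 67.5% down to 33.1% and 34.2% in RRBS, and the start-site line lies below them in every class.

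In a small set of deep H3K4me1 peaks every measured deep site had a low level in both assays. Of the 2291 peaks with 3 or more deep sites, 26 (1.13%), in 26 genes, had all deep sites at 20% or less in both assays, with a mean level of 4.96% in RRBS and a median of 3 deep sites per peak. Another 69 (3.01%), in 64 genes, had all at 80% or more in both. The other 2196 were mixed, with mean levels of 63.9% and 50.6%. A Pol II PS5 peak overlapped 9 of the 26 low peaks (34.6%, interval 17.2 to 55.7), 7 of the 69 high peaks (10.1%, interval 4.18 to 19.8) and 16.2% of the 2291 (interval 14.7 to 17.7). The averaged intervals at the low peaks had a median of 32.5 C positions per kb and those at the high peaks 18.9, against 23.7 in all. Median widths were 3896, 4163 and 5609 bases.

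The low peak with most deep sites was on scaffold_4 from 26888075 to 26897326, about 148 kb into ENSCPOG00000011314. Its 13 deep sites had a mean of 2.77% in RRBS, none above 15%, and 0 in ChIP-bisulfite, and no Pol II PS5 peak overlapped it. The peak on scaffold_314 from 229364 to 234581, about 178 kb into ENSCPOG00000001300, had 5 deep sites at 0 in both assays. Of its sites, 3 lay inside a Pol II PS5 peak, and the averaged interval there had 108 C positions per kb. The peak on scaffold_1 from 32035686 to 32038875 held the 5 unmethylated sites of ENSCPOG00000007040 and also overlapped a Pol II PS5 peak. Among the high peaks, that on scaffold_131 from 1279214 to 1283417, about 410 kb into ENSCPOG00000012897, had 7 deep sites with a mean of 91.7% in RRBS, none below 81%, and 100% in ChIP-bisulfite. Whether the low peaks hold a start site that the table does not list was not tested.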

How the data were processed

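Per the labels, frozen hippocampus of each animal was fixed, and H3K4me1 or Pol II PS5 DNA was precipitated. RRBS DNA was cut with restriction enzymes. Bismark 0.12.5, BSMAP 2.74, methylKit, HOMER 4.6, MACS2, Bowtie2 2.2.3 and SAMtools 1.1 appear, without roles, among the tools of the submitters' processing notes. The authors deposited methylation levels as whole percent per site with animals pooled. They also deposited an enrichment score per peak and per transcript, and a count of RRBS reads per position. A count of C positions was deposited per interval of the H3K4me1 averages, and these intervals are not all the same as the listed peaks. RRBS levels matched whole methylated reads within 0.51 points at 99.8% of sites. The table's 241970 lines were reduced to distinct sites, each given to the transcript with the smallest absolute distance. The ChIP-bisulfite columns of the peak averages were not used, because lines are displaced. A site was inside a peak if its base overlapped it. SEs were linearised with genes as units (pandas 2.3.3, NumPy 2.4.6), and intervals used SciPy 1.17.1; the code was tested on simulated data. Of 19244 gene identifiers, 0 matched the reference table, so the gene and marker lists could not be applied. Named genes, with 5 or more deep sites, were taken from the 10 with most sites, the 5 highest and lowest in RRBS, the 5 most negative and positive differences and the 10 highest scores. Single sites came from the 5 with most reads and the 10 in the highest-scoring Pol II PS5 peaks. H3K4me1 and Pol II PS5 peaks named apart from these were chosen after their values were seen. The members and lists were chosen with earlier results of these data known.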

Additional observations from a re-analysis of the deposited data

How the results depend on the processing

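Of 53 alternative values over 17 results, 37 stayed near the reported value, 10 moved beyond that limit and 6 changed sign. Near meant within the 95% interval (SE over genes, or binomial) of the reported value. For the share of variance between genes, it meant a difference of at most the reported value divided by 3. With 20 or more RRBS reads per site, the mean levels of deep sites were 66.0% and 54.3%, and the share listed lower was 12.3%. With each H3K4me1 peak weighted equally they were 67.8% and 57.0%, with a difference of -10.7 points. The excess of deep sites over those at 10000 to 100000 bases became -0.30 in RRBS and -0.86 in ChIP-bisulfite within genes with at least 3 sites in both ranges, -0.41 and -1.09 with at least 5, and 0.34 and -0.23 with at least 10. Counting every deep site lower by 40 points or more gave 25.2%, a looser rule than the authors'. Only Pol II PS5 peaks with a score at or above the median held 0.367% of deep sites, and 3.58% lay inside or within 500 bases of any. Genes with a Pol II PS5 peak at the start site, an alternative added after the data were seen, differed from those without by -0.21 points in ChIP-bisulfite, against 1.83 points by score. Where not stated, the cause was not tested. Depths of ChIP-bisulfite levels are unknown, which limits every statement on single sites in that assay. No paired analysis was possible because the deposited values pool the 3 animals.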
